A study of Mus musculus with 9 samples.

Results

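The transcripts of 10 genes of the hypoxia-inducible factor (HIF) pathway were followed in substantia nigra of sham-operated mice that were fed freely or fasted. The genes are Hif3a, Hif1a and Epas1, which encode the 3 HIF alpha subunits, Arnt, their partner, the prolyl hydroxylases Egln1, Egln2 and Egln3, Vhl, and the target genes Vegfa and Bnip3. They were taken by symbol from a deposited table of 20591 genes, and all 10 were present and passed the filter on low counts. Hif3a was chosen by its measured level in these libraries, which differed between fasted and freely fed mice, and the other 9 by their place in the pathway, with the same results known. The differences of Hif3a are therefore given as values, and its outcomes in the tests over all genes only describe them.

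All mice were wild type C57BL/6 with a sham operation, and entered the study at 12 weeks of age. The ad libitum group ate freely for 1 week, the 1 day group had a single 24 hour fast, and the 1 week group followed intermittent fasting (IF) with 3 such fasts. Fasts began 2 hours before lights off, and freely fed mice changed cages on the same schedule. Each group has 3 libraries, and nothing states that each came from a separate mouse, so p-values measure the spread between libraries, which may be technical. Neither the nature of the sham operation nor the time from the last fast to sampling is stated in the labels.

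HIF is a pair of proteins, an oxygen-regulated alpha subunit and the stable subunit ARNT. When oxygen is present, the prolyl hydroxylases encoded by the Egln genes modify the alpha subunit, the VHL protein then binds it, and it is broken down. When oxygen is short, the alpha subunit persists, pairs with ARNT and binds DNA at a short core sequence to raise genes of glucose uptake, vessel growth and mitophagy. Much of this control acts on protein, which these data do not measure. HIF-3 alpha has several isoforms, some of which restrain the other alpha subunits, and the table holds 1 value per gene.

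The core sequence that HIF binds is ACGTG or GCGTG. To show where it lies near Hif3a, near a classical HIF target and near a HIF-induced hydroxylase, the 250 bases before the transcript start are given 5′ to 3′ on the gene's strand, with capitals for matches on either strand (a match on the other strand reads CACGT or CACGC). Sequences are RefSeq's, in build GRCm38.p6, all on the minus strand, at chr7:17062428-17062677 for Hif3a, chr7:138909507-138909756 for Bnip3 and chr12:54203875-54204124 for Egln3.
Hif3a: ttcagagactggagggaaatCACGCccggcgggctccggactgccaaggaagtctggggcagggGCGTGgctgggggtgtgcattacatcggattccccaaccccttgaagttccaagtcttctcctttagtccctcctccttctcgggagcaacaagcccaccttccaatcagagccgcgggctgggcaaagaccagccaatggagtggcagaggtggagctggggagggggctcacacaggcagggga
Bnip3: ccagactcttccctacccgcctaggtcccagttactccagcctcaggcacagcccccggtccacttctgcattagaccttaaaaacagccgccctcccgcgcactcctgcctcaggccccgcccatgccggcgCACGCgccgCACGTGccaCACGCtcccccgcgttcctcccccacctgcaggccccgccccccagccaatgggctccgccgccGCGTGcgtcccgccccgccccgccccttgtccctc
Egln3: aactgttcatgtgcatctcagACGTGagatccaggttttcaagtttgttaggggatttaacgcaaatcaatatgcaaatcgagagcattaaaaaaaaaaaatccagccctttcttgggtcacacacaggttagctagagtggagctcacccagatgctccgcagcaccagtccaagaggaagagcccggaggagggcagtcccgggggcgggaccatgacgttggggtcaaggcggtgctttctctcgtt

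Of the 10 genes 9 had a window in the RefSeq table, with 11 windows in all because Egln2 and Vegfa have 2 each, and Epas1 had none. At least 1 match to ACGTG or GCGTG was found in 9 of the 11 windows (81.8%), against 38.6% of all 32851 windows of that length. Bnip3 had 2 matches to ACGTG, which overlap as the palindrome CACGTG, and 3 to GCGTG. Hif3a had 2 matches to GCGTG and 0 to ACGTG, and Vhl had 0 to either. The Vegfa window at chr17:46032378-46032627 also had 0 to either, and the other Vegfa window, at chr17:46025164-46025413, had 1 to each. That window and the Egln2 window at chr7:27165729-27165978 each lie downstream of the other window of their gene. The 81.8% thus counts windows and not genes, and base composition was not matched to that of all windows. The sequence AGAACA, an arm of the element that the glucocorticoid receptor binds, was searched on both strands as well and was in 0 of the 11 windows, against 16.1% of all windows. These letter matches describe the windows and are not evidence of binding.

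Libraries held between 36109995 and 54248856 counts, and levels below are CPM (counts scaled to a common library size with TMM factors), as mean ± SD of 3 libraries unless single libraries are named. In each fasted group replicate 2 stood apart, with a quality weight of 0.213 after 1 day and 0.507 after 1 week, against 0.972 to 1.93 for the other 7 libraries. Ad libitum replicate 2 had a weight of 1.49 but the lowest TMM factor, 0.897 against 0.975 to 1.03 elsewhere. The marker lists of brain cell types were measured in full except the cortical one, with 7 of 8. Dopaminergic neuron markers, which define the labelled region, summed to 1307 to 1718 CPM in the ad libitum libraries, 851 to 1696 in the 1 day group and 1312 to 2067 in the 1 week group. Cortical neuron markers summed to 617 CPM in 1 week replicate 3, against 76.6 to 131 elsewhere. Those of choroid plexus summed to 393 CPM in ad libitum replicate 3, against 21.0 to 59.9 elsewhere. In lysates such as these, fewer cells of a type and less RNA per cell cannot be told apart.

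Hif3a (ENSMUSG00000004328) was the member that stood out. Its level was 5.50, 7.67 and 9.01 CPM in ad libitum replicates 1, 2 and 3. After 1 day it was 31.1, 13.8 and 21.7 CPM in replicates 1, 2 and 3, and after 1 week 40.4, 41.7 and 57.1 CPM. No group overlapped with another, so that all 9 libraries fell in the order ad libitum, 1 day, 1 week. The lowest 1 day value was that of replicate 2, one of the libraries that stood apart. Group means were 7.39 ± 1.77, 22.2 ± 8.67 and 46.4 ± 9.28 CPM (SD, n = 3 each). The fitted difference was 3.01-fold after 1 day (log2 fold change 1.59, SE 0.30), 6.27-fold after 1 week (2.65, SE 0.30) and 2.08-fold between 1 week and 1 day (1.06, SE 0.29). Leaving out single libraries gave log2 fold changes of 1.27 to 1.84, 2.47 to 2.83 and 0.82 to 1.38 for these comparisons. Both comparisons with the ad libitum group share the same 3 control libraries.

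**Figure D1:**
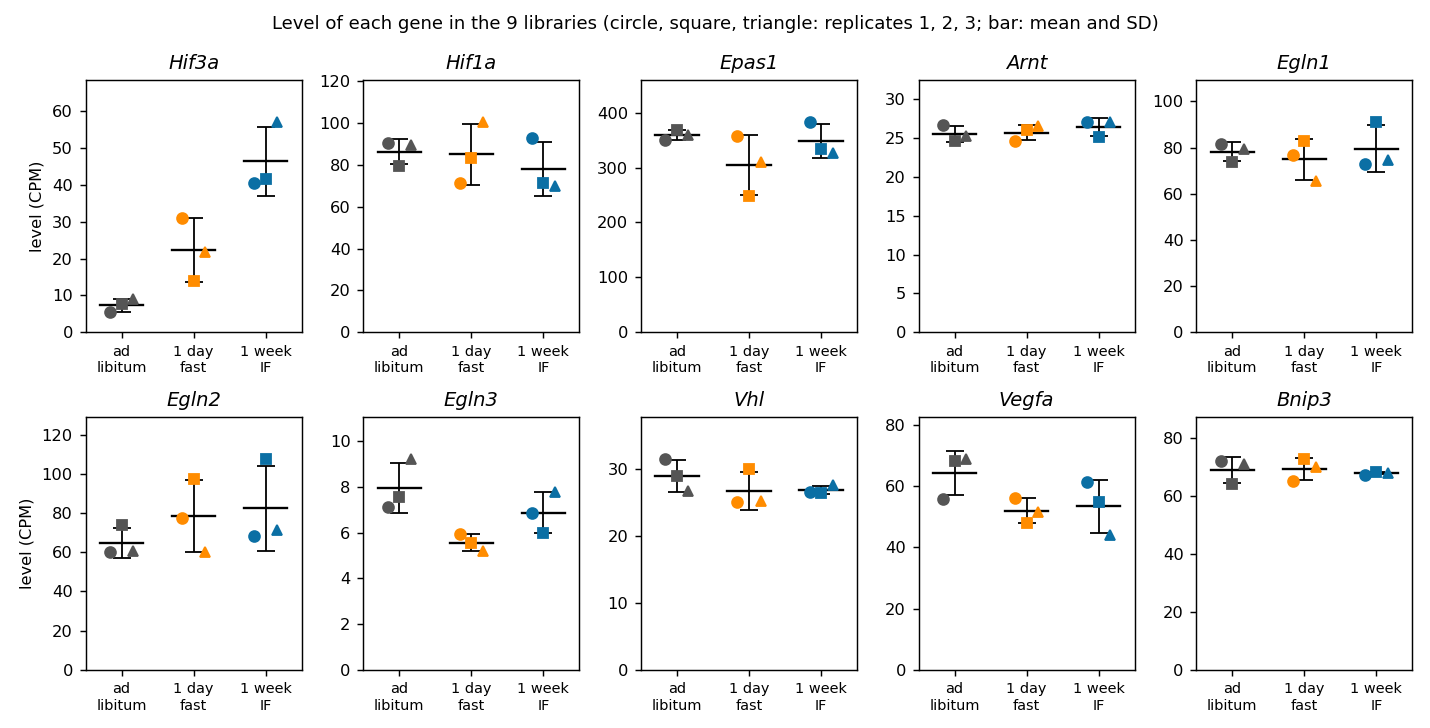
Level of each of the 10 genes in CPM (vertical axis, from 0, with its own scale per gene) in the 9 libraries, by group; symbols mark replicates, and horizontal lines with bars give the mean and SD of 3 libraries. Hif3a means are 7.39, 22.2 and 46.4 CPM in the 3 groups with no overlap, while the ranges of the other genes except Egln3 overlap between all groups.

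By edgeR's quasi-likelihood test with adjustment over all 20535 genes tested, 0 of the 10 members passed after 1 day, where 0.0584% of all genes passed (0.0536% higher and 0.00487% lower). After 1 week 1 passed and rose, Hif3a, where 0.307% of all genes passed (0.253% higher and 0.0536% lower). Between 1 week and 1 day 0 passed, as did 0% of all genes. At an unadjusted p below 0.05 the counts were 2, 1 and 1 of 10, against 9.27%, 11.2% and 5.22% of all genes. After 1 day the groups did not overlap for 2 of the 10, Hif3a higher and Egln3 lower, against 18.5% of all genes (8.17% higher and 10.3% lower). After 1 week this held for 1, Hif3a, against 22.4% of all genes (10.9% higher and 11.5% lower). Between 1 week and 1 day it held for 2, Hif3a and Egln3, both higher after 1 week, against 7.79% of all genes (4.5% higher and 3.28% lower). DESeq2 and limma's voom with quality weights each called 1 member after 1 day, again Hif3a, 1 after 1 week and 0 between the fasted groups. Without ad libitum replicate 1, 2 or 3 the count after 1 week was 0 by edgeR. As Hif3a was chosen for this difference, nothing about it is read from these counts.

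The other alpha subunits did not follow Hif3a. Hif1a, the widely expressed HIF alpha gene, was at 86.2 ± 5.97, 85.0 ± 14.6 and 77.9 ± 12.7 CPM in the ad libitum, 1 day and 1 week groups. Its log2 fold change was -0.02 (95% interval -0.35 to 0.31) after 1 day and -0.15 (-0.48 to 0.19) after 1 week. Epas1, which encodes HIF-2 alpha and is strong in brain vessels, had the highest CPM of the 10, which is not corrected for length. It was at 350, 368 and 359 CPM in ad libitum replicates 1 to 3, at 356, 248 and 309 CPM after 1 day and at 383, 334 and 327 CPM after 1 week. The lowest of these 9 values came from 1 day replicate 2, and without that library the log2 fold change after 1 day was -0.11 in place of -0.24 (SE 0.13, edgeR adjusted p = 0.570). After 1 week it was -0.04 (95% interval -0.34 to 0.25). Arnt stayed between 24.6 and 27.0 CPM in all 9 libraries, with intervals of -0.19 to 0.21 after 1 day and -0.15 to 0.25 after 1 week on the log2 scale.

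**Figure D2:**
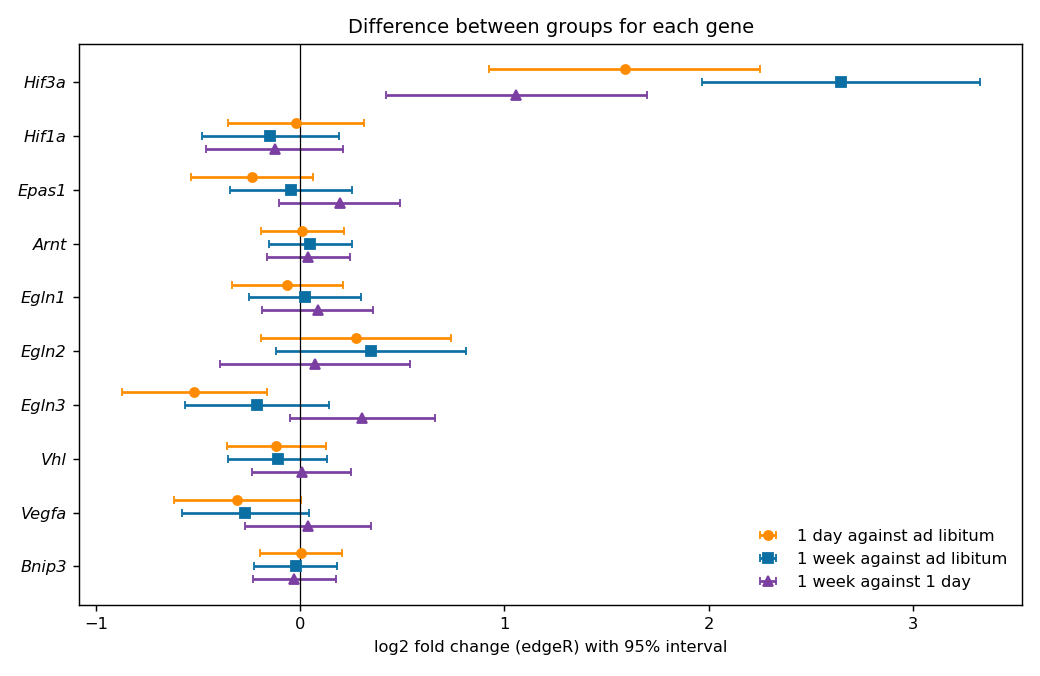
Fitted log2 fold change of each gene (horizontal axis) with its 95% interval, for 1 day against ad libitum, 1 week against ad libitum and 1 week against 1 day; all intervals come from a single edgeR fit to 9 libraries. Hif3a lies at 1.59, 2.65 and 1.06, and of the other genes the interval of Egln3 after 1 day, at -0.52, is the one that does not reach 0.

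Genes of different length compare only per length, so CPM was divided by the kilobases of each gene's longest annotated transcript. With the longest transcripts Epas1 led in every group (65.1 ± 1.64, 55.2 ± 9.87 and 63.1 ± 5.54 CPM per kilobase). In the ad libitum group it was followed by Bnip3 (39.4 ± 2.49), Egln2 (30.8 ± 3.67), Egln1 (21.8 ± 1.12), Vegfa (18.6 ± 2.12), Hif1a (18.2 ± 1.26), Vhl (10.4 ± 0.867), Arnt (5.89 ± 0.237), Egln3 (2.99 ± 0.414) and Hif3a (1.15 ± 0.277). Of these neighbours Vegfa and Hif1a overlapped, and the other pairs did not. After 1 day Hif3a stood at 3.47 ± 1.35 CPM per kilobase, in place 9 and overlapping with Egln3 at 2.09 ± 0.138. After 1 week it stood in place 8 at 7.24 ± 1.45, between Vhl at 9.64 ± 0.228 and Arnt at 6.10 ± 0.264, without overlap with either. The order depends on the length used. With median transcript lengths Bnip3 led every group (155 ± 9.80, 156 ± 8.51 and 153 ± 1.12 CPM per kilobase), ahead of Epas1 (123 ± 3.10, 104 ± 18.6 and 119 ± 10.46). Egln3 was then the lowest in every group, and Hif3a stood in place 9, 8 and 7 in the ad libitum, 1 day and 1 week groups.

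As a share of the summed per-length level of the 3 alpha genes, Hif3a made up 1.03% to 1.65% in the ad libitum libraries, 3.33% to 5.75% after 1 day and 6.62% to 10.7% after 1 week. Epas1 held 77.0% ± 1.50, 71.8% ± 4.02 and 72.7% ± 1.15, and Hif1a the remainder. With these lengths Hif3a was the lowest of the 3 alpha genes in each of the 9 libraries. With the median transcript length of each gene in place of the longest, its mean shares were 3.12%, 9.65% and 17.7%. In 1 week replicate 3 it then stood above Hif1a, at 22.03% against 20.43%. The share thus depends on which transcripts are made, which the table does not show, while the order of the groups was the same.

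**Figure D3:**
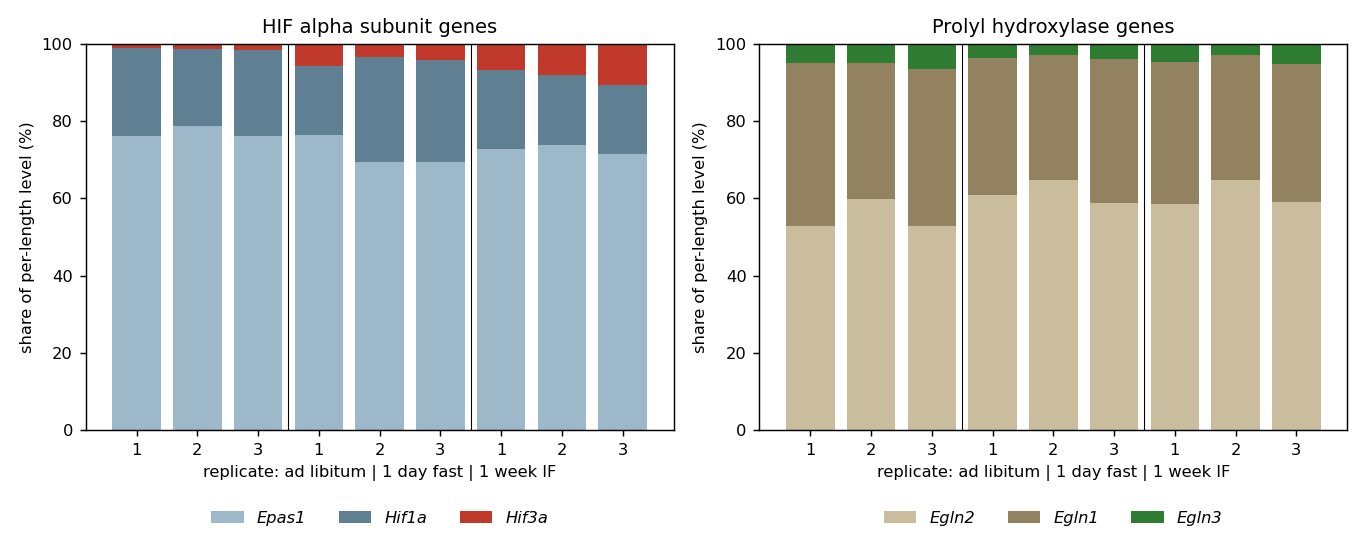
Share of each gene in the summed per-length level (vertical axis, percent) of the HIF alpha genes (left) and of the prolyl hydroxylase genes (right), with 1 bar per library in the groups ad libitum, 1 day and 1 week. The Hif3a segment is 1.03% to 1.65% in the ad libitum libraries and 6.62% to 10.7% after 1 week, and the Egln3 segment is between 2.85% and 6.36% throughout.

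Among the prolyl hydroxylases Egln3, which is itself a HIF target in many cells, was the lowest. It was at 7.12, 7.55 and 9.21 CPM in ad libitum replicates 1 to 3, at 5.94, 5.53 and 5.21 CPM after 1 day and at 6.87, 5.97 and 7.76 CPM after 1 week. The 1 day libraries lay below all ad libitum and all 1 week libraries, while the ad libitum and 1 week libraries overlapped. The log2 fold change after 1 day was -0.52 (SE 0.16), with an unadjusted p of 0.00847 and an adjusted p of 0.420 (edgeR), so it did not pass.  After 1 week it was -0.21 (SE 0.16, edgeR adjusted p = 0.674). Summed microglia markers were also lower in all 1 day libraries (224 to 260 CPM) than in all ad libitum libraries (314 to 343 CPM). So were those of red blood cells (282 to 329 against 446 to 483 CPM) and of cortical neurons (76.6 to 88.4 against 124 to 131 CPM). The part of these cell types in the Egln3 values was not tested.

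Egln1, which encodes the main oxygen-sensing hydroxylase PHD2, was between 65.4 and 91.1 CPM in the 9 libraries, with log2 fold changes of -0.06 (95% interval -0.34 to 0.21) after 1 day and 0.02 (-0.25 to 0.30) after 1 week. Egln2, which encodes PHD1, varied more between replicates. It was at 60.1, 73.8 and 60.7 CPM in the ad libitum group, at 77.7, 97.4 and 60.4 CPM after 1 day and at 68.3, 108 and 71.7 CPM after 1 week. Replicate 2 was the highest of each group, and in both fasted groups this was the library that stood apart. The log2 fold changes of Egln2 were 0.28 (SE 0.21) and 0.35 (SE 0.21), and fell to 0.09 and 0.12 without both of those libraries. Vhl, the gene of the protein that recognises hydroxylated HIF alpha, was between 25.1 and 31.5 CPM, with intervals of -0.36 to 0.13 and -0.35 to 0.13.

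The 2 target genes among the members did not pass either. Vegfa, the main signal for vessel growth, was at 55.9, 68.2 and 68.9 CPM in the ad libitum libraries, at 56.3, 48.0 and 51.7 CPM after 1 day and at 61.3, 54.7 and 44.2 CPM after 1 week. The groups overlapped through ad libitum replicate 1. Its log2 fold change was -0.31 (SE 0.14, edgeR adjusted p = 0.542) after 1 day and -0.27 (SE 0.14, edgeR adjusted p = 0.526) after 1 week. Bnip3, a mitochondrial protein that marks mitochondria for removal, varied little. It was at 69.1 ± 4.37, 69.4 ± 3.80 and 68.1 ± 0.502 CPM, and its intervals were -0.20 to 0.21 after 1 day and -0.22 to 0.18 after 1 week. Its upstream window held 5 matches to the core, against 2 for Hif3a.

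The wider pathway was read from 7 lists with 157 measured genes other than the members. After 1 day 1 of the 157 passed (0.637%, against 0.0584% of all genes) and after 1 week 4 did (2.55%, against 0.307%). At an unadjusted p below 0.05 the shares were 18.5% and 18.5%, against 9.27% and 11.2% of all genes. Between 1 week and 1 day 0 passed by edgeR, DESeq2 or voom, and 7 had an unadjusted p below 0.05 (4.46%, against 5.22%). DESeq2 called 5 and 10 of the 157 after 1 day and 1 week, and 187 and 467 over all genes. The median log2 fold change over the 157 was 0.00 after 1 day and 0.03 after 1 week, and that over all genes 0.00 in both. The lists were written with earlier results of these data known, those for Ddit4 and Trf among them. None of these counts and shares is therefore independent evidence.

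Of 23 HIF targets in glycolysis and glucose uptake 1 rose after 1 week, Slc2a1, which encodes the glucose transporter GLUT1 of the blood-brain barrier. It was at 117, 135 and 138 CPM in the ad libitum libraries, at 211, 187 and 149 CPM after 1 day and at 213, 277 and 247 CPM after 1 week. Like Hif3a, it was in the order ad libitum, 1 day, 1 week in all 9 libraries. The log2 fold change was 0.49 (SE 0.15, edgeR adjusted p = 0.418) after 1 day and 0.92 (SE 0.15, edgeR adjusted p = 0.0380) after 1 week. That call was lost in 6 of 9 fits that left out a library, namely each from the ad libitum group, replicate 1 of the 1 day group and replicates 2 and 3 after 1 week (highest adjusted p = 0.227), and without both libraries that stood apart (0.0833). Other genes of the list did not pass by edgeR, while DESeq2 called 1 of them in each comparison, Pgm1. This enzyme of glycogen use had log2 fold changes of 0.43 (adjusted p = 0.217) and 0.36 (adjusted p = 0.181, edgeR). Ldha and Pgk1, textbook HIF targets named after their values were seen, were at -0.11 (SE 0.11) and -0.05 (SE 0.09) after 1 day and at -0.09 (SE 0.11) and -0.12 (SE 0.09) after 1 week. The list's median was -0.04 after 1 day and -0.07 after 1 week.

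**Figure D4:**
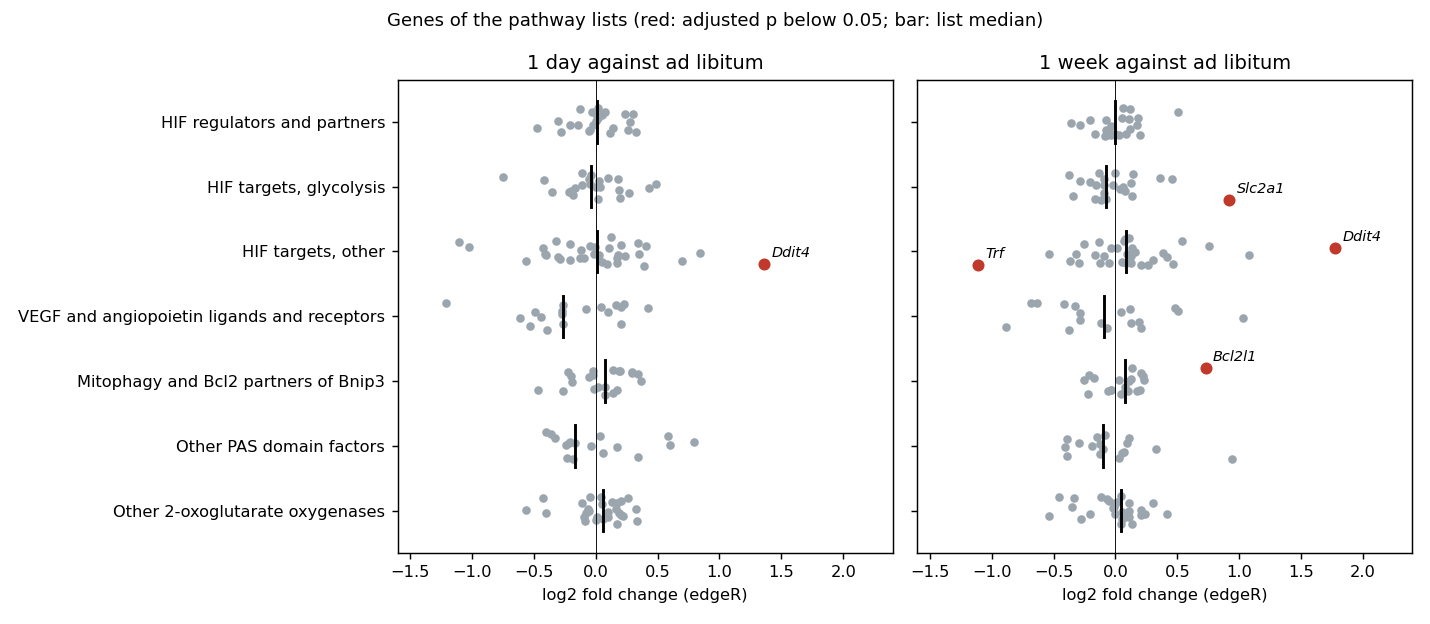
Log2 fold change (horizontal axis) of each measured gene in 7 lists of the HIF pathway, for 1 day (left) and 1 week (right) against ad libitum; each point is a gene, red points passed edgeR's test at an adjusted p below 0.05, and vertical bars are list medians. Ddit4 passed after 1 day at 1.36, and Ddit4, Slc2a1, Bcl2l1 and Trf after 1 week at 1.78, 0.92, 0.73 and -1.11.

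Of 34 measured HIF targets outside glycolysis, edgeR called 1 higher and 0 lower after 1 day, and 1 higher and 1 lower after 1 week. DESeq2 called 1 higher and 3 lower after 1 day and 1 higher and 2 lower after 1 week, and voom 1 higher and 1 lower in each. Without both libraries that stood apart edgeR called 0 higher and 1 lower after 1 day. Ddit4, an inhibitor of mTORC1 that hypoxia and glucocorticoids both induce, was at 38.1 ± 3.86, 98.0 ± 18.8 and 131 ± 30.4 CPM in the ad libitum, 1 day and 1 week groups, a 2.57-fold and a 3.42-fold difference. After 1 day all 3 libraries lay above the ad libitum ones. The 1 day call (edgeR adjusted p = 0.0478) held in 2 of 9 fits that left out 1 library, those without 1 week replicate 1 or 2, and the adjusted p reached 0.326. It was also lost without both libraries that stood apart (0.0560), with a filter of 1 CPM (0.0552) and with a replicate block (0.0730). The 1 week call (adjusted p = 0.00663) ended without ad libitum replicates 1 and 3 (0.0719 and 0.0604). Trf, the gene of transferrin, which oligodendrocytes express strongly, was at 946 ± 94.0, 441 ± 26.5 and 438 ± 104 CPM, and fell after 1 week (edgeR adjusted p = 0.0322). It passed in 4 of 9 fits that left out a library, and not without any of the freely fed libraries, replicate 1 of the 1 day group or replicate 3 after 1 week (highest adjusted p = 0.185). Summed oligodendrocyte markers were 11463 to 13979 CPM in the ad libitum libraries, 9902 to 11782 after 1 day and 10555 to 11980 after 1 week, so that the sums overlapped. Of the 10 markers 5 lay lower without overlap in each comparison, against 10.3% and 11.5% of all genes. The medians of the 10 were -0.31 and -0.35. Ugt8a, an enzyme of myelin lipid synthesis, was the marker called lower after 1 week (edgeR adjusted p = 0.0381). Their part in the Trf values was not tested. P4ha1, a collagen prolyl hydroxylase, did not pass by edgeR, at -0.57 (adjusted p = 0.185) and -0.53 (adjusted p = 0.124, edgeR). The list's median was 0.01 after 1 day and 0.09 after 1 week.

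Of 23 regulators and partners of HIF 0 passed after 1 day or 1 week by edgeR, DESeq2 or voom. At an unadjusted p below 0.05 were 3 and 2 genes, against 9.27% and 11.2% of all genes. Cited2, a HIF target that competes with HIF for its coactivators, had a log2 fold change of 0.50 after 1 week (SE 0.22, edgeR adjusted p = 0.426), and Hsp90aa1, a chaperone that stabilises HIF alpha, was at -0.36 (SE 0.14, adjusted p = 0.383). Arnt2, the ARNT paralogue of neurons, and Hif1an, the asparagine hydroxylase that blocks HIF's coactivator binding, were named after their values were seen. Arnt2 was at -0.03 and -0.08 and Hif1an at 0.14 and 0.05 after 1 day and 1 week.

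Of 18 ligands and receptors of the VEGF and angiopoietin families 0 passed by edgeR in either comparison. At an unadjusted p below 0.05 were 5 and 6 of the 18, against 9.27% and 11.2% of all genes. DESeq2 called 0 genes after 1 day and 1 after 1 week. The median log2 fold change was -0.27 after 1 day and -0.09 after 1 week. Kdr, the main VEGF receptor, was at -0.49 (SE 0.20) and -0.64 (SE 0.20, edgeR adjusted p = 0.263), and Apln, a peptide of vessel growth, at -0.54 (SE 0.23) and -0.68 (SE 0.23, adjusted p = 0.311). Notch4, a receptor of endothelial cells, was at 1.03 after 1 week (SE 0.21, adjusted p = 0.0839). Summed endothelial markers were 357 to 434 CPM in the ad libitum libraries, 352 to 396 after 1 day and 329 to 417 after 1 week, so that the sums overlapped. The endothelial markers share Kdr, Flt1 and Tek with the VEGF list. After 1 day 9 of the 12 markers had negative values, with a median of -0.27, and 6 an unadjusted p below 0.05. After 1 week 9 were negative, with a median of -0.13, and 3 had such a p. Over all genes 9.27% and 11.2% had such a p. The part of the endothelial markers in the values of the VEGF list was not tested.

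Among 21 mitophagy genes and Bcl2-family partners of Bnip3 0 passed after 1 day by edgeR, DESeq2 or voom. There 2 had an unadjusted p below 0.05, against 9.27% of all genes. After 1 week 1 passed and rose. This was Bcl2l1, which encodes the survival protein BCL-XL. It was at 91.4, 101 and 94.6 CPM in the ad libitum libraries, at 142, 108 and 120 CPM after 1 day and at 145, 173 and 159 CPM after 1 week, a 1.66-fold difference after 1 week (log2 fold change 0.73, SE 0.12, edgeR adjusted p = 0.0403). Its libraries too did not overlap between the 3 groups. It passed in 3 of 9 fits that left out a library, and not without any of the ad libitum libraries, replicate 3 of the 1 day group or replicates 2 and 3 after 1 week (highest adjusted p = 0.245). Bnip3l, the close relative of Bnip3, named after its values were seen, was at -0.22 (SE 0.13) in both comparisons. The list's median was 0.08 and 0.08.

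The genes whose log2 CPM followed that of Hif3a most closely over the 9 libraries were Atp10a (Pearson's r = 0.987), a lipid flippase, Ankrd13a (0.982), Prodh (0.978), which begins proline breakdown, Slc2a4 (0.977), the insulin-responsive glucose transporter GLUT4, Pla1a (0.974), Map3k6 (0.973), Itgad (0.973) and Cdkn1a (0.970), a cell cycle inhibitor. The most opposite were Camkmt (-0.957), Rasa3 (-0.954), Uros (-0.954) and Leprotl1 (-0.951). These values describe the same 9 libraries, in which the 3 groups differ in Hif3a, and carry no test. Atp10a was at 16.3 ± 2.00, 23.6 ± 5.43 and 33.0 ± 4.45 CPM in the ad libitum, 1 day and 1 week groups, and its r with Hif3a was 0.981 to 0.993 when single libraries were left out. Map3k6 and Cdkn1a are on the list of 27 glucocorticoid-induced genes. Of these 5 rose after 1 day and 16 after 1 week by edgeR, without any that fell, against 0.0536% and 0.253% of all genes higher. Without single libraries those counts were 0 to 7 and 3 to 18, and without both libraries that stood apart 6 and 9. That list was written with these results known, and Hif3a was not put on it. Ddit4, Angptl4 and Per1 are on it and on a pathway list as well.

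**Figure D5:**
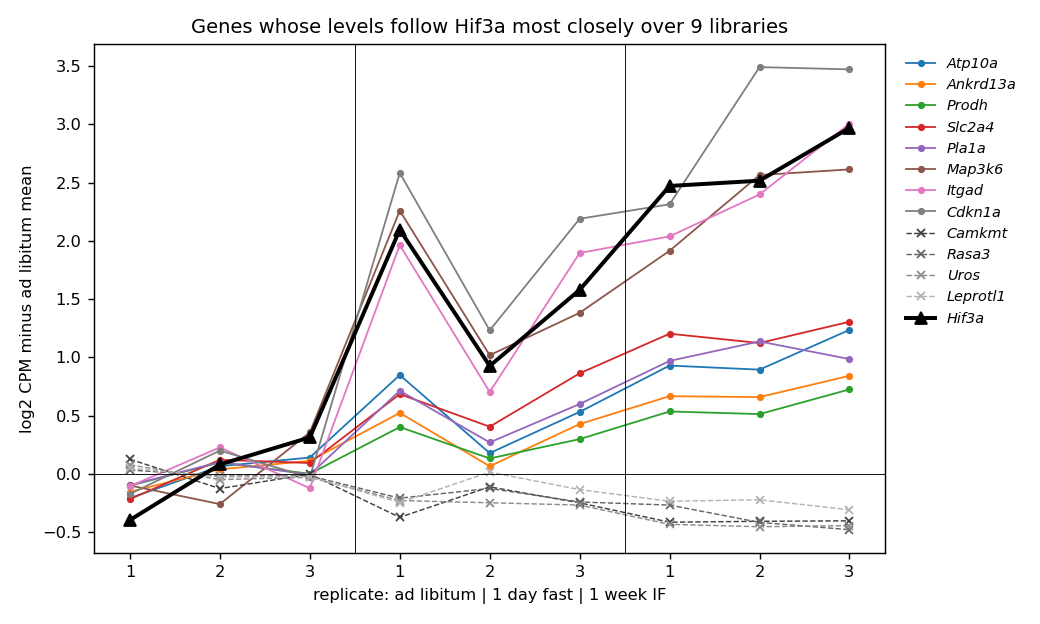
Log2 CPM minus the ad libitum mean (vertical axis) in each of the 9 libraries (horizontal axis, replicates 1 to 3 of each group) for Hif3a (black), the 8 genes with the highest correlation to it and the 4 with the lowest (dashed); lines join values of a gene and imply no order among replicates. In the 1 day group replicate 2 is the lowest for Hif3a and for each of the 8 genes, and replicate 1 the highest except for Slc2a4, where replicate 3 is.

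With the group means removed, so that only the spread between replicates counted, Atp10a again had the highest r with Hif3a (0.992). It was followed by Mroh1 (0.988), Spsb1 (0.987), Syde1 (0.986), Tle3 (0.983), Zfp276 (0.977), Ankrd13a (0.977) and Tns2 (0.969), so that Atp10a and Ankrd13a were in both groups of 8. Within the 1 day group replicate 2, a library that stood apart, was the lowest for Hif3a and for each of these 8 genes. How far that library carries these r was not tested. Summed astrocyte markers were 4364 to 4602 CPM in the ad libitum libraries, 4562 to 5124 after 1 day and 4738 to 5169 after 1 week, and those of mural cells 311 to 437, 294 to 400 and 362 to 510 CPM. The astrocyte sums of the ad libitum and 1 week groups did not overlap, and their part in the Hif3a values was not tested.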

How the data were processed

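RNA-seq libraries from substantia nigra lysate were analysed in 3 groups of 3. The authors deposited estimated counts per gene as whole numbers, not scaled to depth. Per the submitters' processing notes, Salmon and DESeq2 1.40.2 were used with builds GRCm39 and mm39. How transcripts were summed to genes, on which annotation and with which row filter, no label states. Libraries, per the labels' protocols, came from polyA RNA with a directional kit.

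The test was that of edgeR 4.0.16 under R 4.3.3 (TMM, filterByExpr with minimum count 10 and total 15, robust quasi-likelihood fit to 9 libraries, two-sided, Benjamini-Hochberg over 20535 genes, threshold 0.05). The filter removed 56 of 20591 rows. Standard errors and 95% intervals came from the F statistics. Log2 CPM used a prior count of 2. Transcript lengths came from GENCODE M21 (GRCm38) by gene identifier. Cell type lists were summed in CPM. No 2 libraries matched within sampling noise (lowest chi-square per gene 26.4). Pairs with ad libitum replicate 2 had the highest values, 158 to 312. The fits were also run on simulated counts, drawn with the spread that edgeR estimated from these data. Nothing about the differing counts of the tools is read from that run. Alternatives were DESeq2 1.42.0, RLE factors, no filter, a filter of 1 CPM in 6 libraries, 6 libraries alone, limma 3.58.1 voom with quality weights, a replicate block and leaving out each library. Leaving out both libraries that stood apart was added after seeing the data.

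The members and lists were chosen with earlier results of these data known. The genes named are the 10 members, up to 4 members of each list by p and comparison, and the genes most and least correlated with Hif3a (mean log2 CPM of 0 or more, unnamed models left out); exceptions are stated. Bmal1 and Bmal2 were read under their older symbols. Epo was not analysed here.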

Additional observations from a re-analysis of the deposited data

Results flagged for a closer look

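Summed markers of red blood cells (5 genes) moved in opposite directions in the fasted groups. They were 446 to 483 CPM in the ad libitum libraries, 282 to 329 CPM in all 1 day libraries and 498 to 1506 CPM in all 1 week libraries, so that the 1 week mean lay 563 CPM above the 1 day mean. The highest value came from 1 week replicate 3, which also held the most cortical neuron markers. The sums were not tested. Singly, 0 of the 5 genes passed by edgeR (lowest adjusted p 0.576 after 1 day, 0.315 after 1 week and 0.853 between the fasted groups). After 1 day 4 of the 5 lay lower without overlap (10.3% of all genes), and after 1 week 1 lay higher (10.9%). Between 1 week and 1 day 5 lay higher after 1 week (4.5%).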

How the results depend on the processing

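Over 30 log2 fold changes of members and 510 refits, 474 kept direction and side of the threshold. After 1 week 1 member passed, and 0 to 1 did without single libraries. After 1 day 0 passed, but 1 with DESeq2 and 1 with voom. Each time the member was Hif3a, which was chosen for its difference, so nothing about it is read from these counts. For 1 day 12 genes were called, but 187 with DESeq2, 26 with 6 libraries alone, 57 with voom, 50 without both libraries that stood apart and 0 to 22 without single libraries. The list genes called were 1, but 5, 2, 2, 2 and 0 to 2 in those fits, and 0 with the filter of 1 CPM. For 1 week 63 genes were called, but 467 with DESeq2, 155 with 6 libraries alone, 218 with voom and 8 to 121 without single libraries, and list genes were 4, but 10 with DESeq2 and 0 to 5 without single libraries. Between the fasted groups 0 genes were called, but 3 with DESeq2 and 0 to 3 without single libraries. With a replicate block the genes called were 2 and 32 and the list genes 0 and 2 for 1 day and 1 week. No label states what same-numbered libraries share beyond the number. Their r of deviations was -0.27 to 0.43, over 0.1 in 3 of 9 pairs. It was highest between both libraries that stood apart, replicate 2 of each fasted group. The cause of these moves in the counts of genes called was not tested. The Hif3a share of HIF alpha was 3.12%, 9.65% and 17.7% with median transcript lengths.

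Changes near 0 reversed sign. With voom Arnt was at -0.00275 and Bnip3 at -0.0314 after 1 day and Egln1 at -0.0403 after 1 week. Without both libraries that stood apart Bnip3 was at -0.0296 after 1 day, Egln1 at -0.0754 after 1 week, and Vegfa at -0.0235 and Bnip3 at 0.0123 between the fasted groups. Without single libraries the ranges after 1 day were -0.15 to 0.0918 for Hif1a, -0.0131 to 0.0434 for Arnt, -0.14 to 0.0337 for Egln1 and -0.0454 to 0.0475 for Bnip3. After 1 week they were -0.12 to 0.00224 for Epas1, -0.0754 to 0.0809 for Egln1 and -0.0737 to 0.01003 for Bnip3. Between the fasted groups they were -0.27 to 0.0125 for Hif1a, -0.0170 to 0.17 for Egln1, -0.16 to 0.26 for Egln2, -0.0390 to 0.10 for Vhl, -0.0725 to 0.16 for Vegfa and -0.0702 to 0.0140 for Bnip3. Egln3 was the least deeply counted member, with 214 to 425 counts per library.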

Other observations

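The relatives of the HIF pathway by protein family were measured too. Of 17 other genes of the PAS domain family, to which the HIF alpha subunits and ARNT belong, 0 passed by edgeR after 1 day or 1 week. At an unadjusted p below 0.05 were 4 and 2 of the 17, against 9.27% and 11.2% of all genes. DESeq2 called 0 and 2, and voom 0 and 1. Per1, a clock gene that glucocorticoids induce, was at 0.60 (SE 0.21, edgeR adjusted p = 0.475) after 1 day and 0.94 (SE 0.21, adjusted p = 0.122) after 1 week, and passed in both comparisons without both libraries that stood apart. Npas3, a neuronal transcription factor, was at -0.40 and -0.41 (SE 0.11 each). Of 29 other oxygenases that use 2-oxoglutarate, as the Egln enzymes do, 0 passed by edgeR in either comparison, while DESeq2 called 1 and 2. At an unadjusted p below 0.05 were 7 and 6 of the 29, against the same 9.27% and 11.2% of all genes. Kdm4a, a histone demethylase, was at 0.33 and 0.41 (SE 0.10 each) and Plod1, a lysyl hydroxylase of collagen, at -0.43 and -0.33 (SE 0.12 each).

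The genes that followed Epas1 most closely over the 9 libraries were Csf2rb (Pearson's r = 0.975), Nr2f6 (0.969), Dlk1 (0.969), Gorasp1 (0.955) and Caskin2 (0.953). With the group means removed they were Smim45 (0.984), Hcn3 (0.983), Pla2g12a (0.974), Frmpd1 (0.969) and Gorasp1 (0.969). All of these genes, like Epas1, had their lowest level in 1 day replicate 2, a library that stood apart. Without it, a choice made after seeing the data, r fell to 0.951 for Csf2rb, 0.922 for Nr2f6, 0.903 for Dlk1, 0.829 for Gorasp1 and 0.797 for Caskin2. With group means removed it then lay between 0.902 and 0.953. None of the genes closest to Epas1 was among those closest to Hif3a. These values describe 9 libraries and carry no test.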
